A study of Mus musculus with 3 samples.

Results

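The genes described here are interferon-inducible GTPases, 8 measured genes out of 10 listed by name and out of 17742 named genes on the array. Gbp2, Gbp3 and Gbp6 are guanylate-binding proteins (GBPs), and Igtp, Irgm1, Irgm2, Ifi47 and Iigp1 are immunity-related GTPases (IRGs). They were chosen by gene symbol, with older names accepted, and each was represented by 1 probe. Gbp4 and Tgtp1 were also listed but matched no probe by name and were not analysed here.

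GBPs and IRGs are made by mouse cells in response to interferon, above all interferon gamma, and load onto the membranes that surround intracellular bacteria and parasites, which they help to break. Among the IRGs, Irgm1, Irgm2 and Igtp (also called Irgm3) form the GMS class, which keeps the other IRGs inactive on the cell's own membranes. Ifi47 (Irgd), Iigp1 (Irga6) and Tgtp1 (Irgb6) are of the GKS class, the effectors that coat the pathogen's vacuole. In macrophages and other myeloid cells both families are standard readouts of interferon signalling.

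The arrays compared cultured myeloid leukaemia cells from the bone marrow of BXH-2 mice, an inbred strain that carries a defective allele of the interferon-related transcription factor Irf8. The resistant group was 1 array of B117HS, a line obtained from B117P by exposure to rising concentrations of cytarabine (Ara-C, a nucleoside analogue that blocks DNA synthesis) over about 10 weeks. The labels put its IC50 at about 10 times the parental value. The sensitive group was 2 arrays of the parental B117P. Whether either line was a clone, whether drug or interferon was present at harvest, and whether the sensitive arrays came from separate cultures were not stated in the labels, so the spread between the sensitive arrays may be technical. No interferon treatment is named in the labels.

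The resistant array was dimmer than both sensitive arrays. Its median intensity was 24.9 units, against 58.4 and 72.5 on the sensitive arrays, and over 6184 probes averaging at least 500 units its median log2 ratio to the sensitive mean was -0.77. Differences are therefore given as deposited and, for the genes and lists that matter most, also after each array was scaled on these bright probes. Intensities were compared as log2(intensity + 50) with limma, fitted over all genes. A call needed an adjusted p (Benjamini-Hochberg) below 0.05 and a resistant value that lay 1 log2 unit or more from both sensitive arrays on the same side. "Fell" and "rose" are used below of genes called on both scales. The offset of 50 shrinks the differences of dim genes, the single resistant array was taken to have the spread of the sensitive pair, and with 3 arrays the precision is limited. In bulk RNA, fewer expressing cells and less RNA per cell cannot be told apart.

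Most of the GTPase transcripts were lower in the resistant line, and Gbp3, Gbp6 and Ifi47 fell on both scales. On the resistant array 7 of the 8 genes read below both sensitive arrays, as did 68.4% of all genes. As deposited, 6 of the 8 were called lower (Gbp2, Gbp3, Gbp6, Igtp, Irgm1 and Ifi47), where 18.5% of all genes were, and 0 were called higher, where 5.23% of all genes were (0 members had an unadjusted p under 0.05 in that direction). After scaling, 3 of the 8 were called lower and 0 higher, against 8.47% and 9.86% of all genes. The median log2 difference of the 8 genes was -1.61 as deposited and -1.15 after scaling, beside -0.33 and -0.059 over all genes. Iigp1 was the exception, with a resistant value between those of the sensitive arrays.

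**Figure D1:**
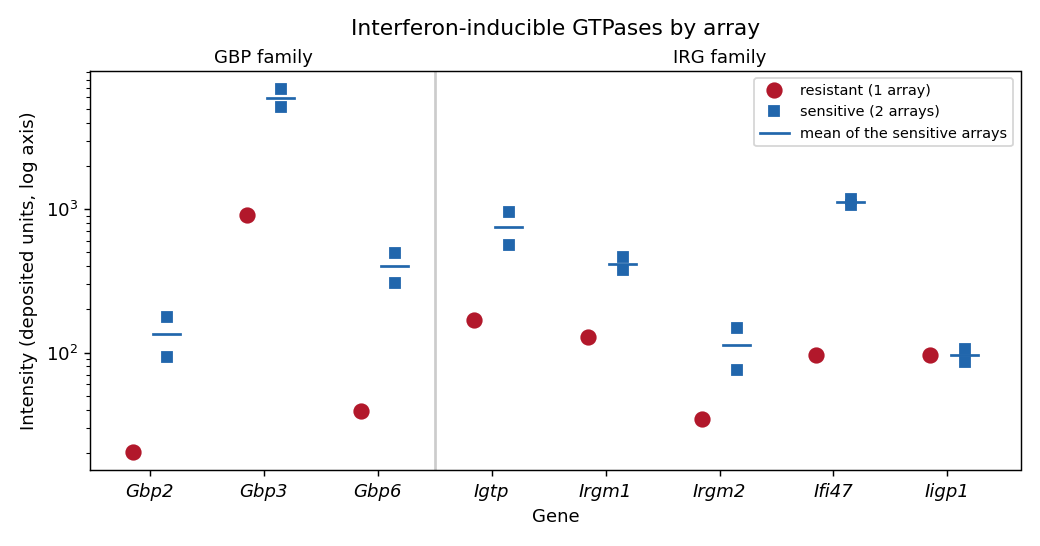
Intensity of each interferon-inducible GTPase on each array, on a log axis, with the resistant array (circle) left of the 2 sensitive arrays (squares, with a bar at their mean). The resistant value lies below both sensitive values for 7 genes and between them for Iigp1, where it was 96.4 units.

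Gbp3, a GBP encoded in the chromosome 3 cluster, was the brightest probe of the group. It read 904 units in resistant cells, against 5157 and 6835 units in sensitive cells. The groups were far apart, and the resistant intensity was 15.1% of the sensitive mean of 5996 ± 1186 (SD, n = 2). The log2 difference was -2.65 (SE 0.22, limma adjusted p = 2.09e-06) as deposited and -1.91 (adjusted p = 0.0153) after scaling.

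Gbp6, from the GBP cluster on chromosome 5, read 38.9 units in resistant cells, against 303 and 493 units in sensitive cells. The resistant value was 9.77% of the sensitive mean and not far above the median of all probes on that array. Its log2 difference was -2.30 (SE 0.33, limma adjusted p = 0.000124) as deposited and -1.91 (adjusted p = 0.0299) after scaling. The call was lost after quantile normalization, where the log2 difference was -1.67 with an adjusted p of 0.0635.

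Gbp2, a chromosome 3 GBP that in mouse cells is recruited to Toxoplasma vacuoles, was dim. It read 20.2 units in resistant cells, against 93.2 and 177 units in sensitive cells. The groups did not overlap, but the sensitive arrays differed from each other by 0.66 on the log2 scale. The log2 difference was -1.36 (SE 0.32, limma adjusted p = 0.00433) as deposited. After scaling it was -1.09 with an adjusted p of 0.0898, so the call held as deposited only.

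Ifi47, a GKS-class effector, showed the largest difference of the 8 genes on both scales. It read 96.4 units in resistant cells, against 1168 and 1063 units in sensitive cells. The resistant intensity was 8.65% of the sensitive mean of 1115 ± 74.1 (SD, n = 2), a gap far wider than that between the sensitive arrays. The log2 difference was -2.99 (SE 0.24, limma adjusted p = 1.57e-06) as deposited and -2.44 (adjusted p = 0.0101) after scaling.

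Iigp1, the other measured effector, encodes an IRG whose structure has been studied in detail. It read 96.4 units in resistant cells, against 85.7 and 106 units in sensitive cells. Its log2 difference was 0.011 as deposited, with a 95% interval of -0.62 to 0.64 (limma adjusted p = 0.978). After scaling it was 0.56, with an interval of -0.041 to 1.17 (adjusted p = 0.123). These intervals leave out a fall of the size seen for Ifi47 on either scale. The difference between these 2 genes was not tested.

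The GMS-class regulators were lower by smaller amounts than Gbp3, Gbp6 and Ifi47, although Igtp differed by more than Gbp2 on both scales. Igtp read 170 units in resistant cells, against 558 and 952 units in sensitive cells, and differed by -1.83 on the log2 scale (SE 0.31, limma adjusted p = 0.000419). Irgm1, which mice need to survive several intracellular infections, read 128 units in resistant cells, against 374 and 460 units in sensitive cells, with a difference of -1.39 (adjusted p = 0.00149). Both resistant values lay below both sensitive values, and both genes were called lower as deposited only. After scaling, the differences were -1.20 (adjusted p = 0.080) for Igtp and -0.80 (adjusted p = 0.0678) for Irgm1.

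Irgm2, which sits beside Igtp on chromosome 11, was not called. It read 34.2 units in resistant cells, against 75.8 and 149 units in sensitive cells. The log2 difference of -0.91 (SE 0.32, limma adjusted p = 0.0331) missed the size asked, and after scaling it was -0.54, with a 95% interval of -1.53 to 0.44. Set against sensitive replicate 2 alone it was -1.24, past that size. The GMS class thus gave 0 of 3 calls on both scales, although 3 of 3 had an intensity below both sensitive arrays, as did 68.4% of all genes. By count, 3 of 3 measured GBPs were called as deposited and 2 of 3 on both scales. Over all genes, 18.5% were called lower as deposited and 8.37% on both scales. With 3 genes in each, the classes were not compared by a test.

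**Figure D2:**
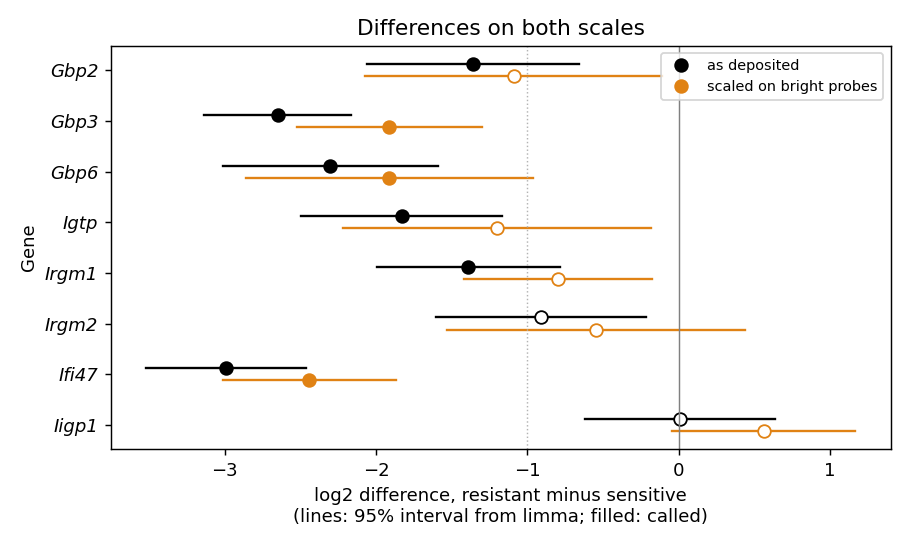
Log2 difference between resistant and sensitive cells for each GTPase, as deposited (black) and after scaling on bright probes (orange), with limma's 95% intervals as lines and filled symbols for called genes. Gbp3, Gbp6 and Ifi47 are filled on both scales, Gbp2, Igtp and Irgm1 as deposited only, and Irgm2 and Iigp1 on neither.

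The sensitive arrays differed from each other in these genes. Sensitive replicate 2 was brighter than replicate 1 for 7 of the 8 GTPases, as it was for 65.0% of all genes, and the median gap was 0.51 on the log2 scale beside 0.076 over all genes. The gap was 0.72 for Igtp, 0.66 for Gbp2 and Irgm2, and 0.62 for Gbp6. It was 0.40 for Gbp3 and 0.27 for Irgm1. Ifi47, at -0.13, was the exception and also had the largest fall. The part of this gap in the results was not tested beyond leaving out each sensitive array: the median difference of the 8 genes was then -1.94 without replicate 1 and -1.36 without replicate 2.

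Promoter sequences of listed genes are shown for the letters that interferon-activated factors are known to read. They include Irgm2, which was not called, and Tgtp1, which was not measured. The genes were listed as interferon-inducible whatever their values here, and any link of these letters to the lower values was not tested. RefSeq promoter windows on GRCm38.p6 (250 bases before to 50 after a start site) were searched on both strands for 7 of the 10 listed genes. The interferon-stimulated response element (ISRE), bound by IRF factors, was searched as GAAA, any 2 bases and GAAA again, or its reverse with TTTC in both places. The gamma-activated site (GAS), the element of interferon gamma targets, was searched as TTCNNNGAA, which reads the same on both strands. The members were counted by gene over 8 windows, with a match in either window of Gbp3 enough, while the background shares are by window. An ISRE match lay in windows of 6 of the 7 genes, against 3.44% of all 32851 windows, and a GAS match in 3 of the 7, against 8.30%. Both motifs together were found for 3 of the 7 genes, against 0.45% of all windows. These matches describe the letters and are not binding sites shown by these data.

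Gbp2, a GBP called lower as deposited, had its match 59 to 50 bases before the start site, and the whole window is printed with the match in capitals (chr3:142620413-142620712, + strand).
Gbp2: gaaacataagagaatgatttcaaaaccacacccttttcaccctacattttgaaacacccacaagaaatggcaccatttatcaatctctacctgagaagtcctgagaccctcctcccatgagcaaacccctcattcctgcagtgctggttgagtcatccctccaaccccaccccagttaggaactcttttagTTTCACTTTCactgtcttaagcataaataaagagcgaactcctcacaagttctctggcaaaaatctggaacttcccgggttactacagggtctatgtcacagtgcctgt

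For the other genes, 60 bases around the first ISRE match are given so that the arrangement can be compared, with ISRE and GAS matches in capitals. They come from chr3:142559961-142560020 (+) for Gbp3, chr11:58199484-58199543 (+) for Igtp, chr11:58214875-58214934 (+) for Irgm2, chr11:48992302-48992361 (-) for Tgtp1 and chr11:48871429-48871488 (-) for Irgm1.
Gbp3: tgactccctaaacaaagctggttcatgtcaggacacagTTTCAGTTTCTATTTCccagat
Igtp: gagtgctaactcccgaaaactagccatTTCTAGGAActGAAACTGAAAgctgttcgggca
Irgm2: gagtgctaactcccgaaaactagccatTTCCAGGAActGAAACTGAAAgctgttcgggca
Tgtp1: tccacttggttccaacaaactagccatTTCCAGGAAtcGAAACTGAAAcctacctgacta
Irgm1: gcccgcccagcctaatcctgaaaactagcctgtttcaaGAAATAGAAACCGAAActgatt

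Igtp, Irgm2 and Tgtp1 carry a GAS match followed after 2 bases by an ISRE match, and Gbp3 and Irgm1 carry a pair of overlapping ISRE matches. The stretches of Igtp and Irgm2 were identical at 59 of 60 bases, while Igtp was called lower as deposited and Irgm2 was not. The window held for Ifi47, the gene with the largest fall, contained neither set of letters. The second window of Gbp3 contained neither as well. Windows of Gbp4, Gbp6 and Iigp1 were not analysed here. The motif counts by gene therefore leave out Iigp1, the only measured member not below both sensitive arrays, and Gbp6, which was called lower.

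Among other interferon-inducible GTPases and relatives of these families, both Mx genes fell and Gbp5 was lower as deposited. Of 8 measured genes (13 were listed), 3 were called lower and 0 higher as deposited, where 18.5% and 5.23% of all genes were. On both scales 2 were lower and 0 higher, against 8.37% and 5.21% of all genes. The median log2 difference of the 8 genes was -0.57 as deposited and -0.43 after scaling. Mx2, a dynamin-like antiviral GTPase, read 17.1 units in resistant cells, against 640 and 1211 units in sensitive cells, which is -3.80 on the log2 scale (SE 0.34, limma adjusted p = 3.52e-06) as deposited and -3.56 after scaling. Mx1, its relative against influenza virus, read 3.11 units in resistant cells, against 84.5 and 152 units in sensitive cells (-1.63 as deposited and -1.57 after scaling). That resistant value is near 0, where a failed spot cannot be told apart from a low transcript, and the Mx1 call was lost after quantile normalization (-1.38, adjusted p = 0.0679).

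Gbp5, which promotes inflammasome assembly and lies beside Gbp3, read 35.8 units in resistant cells, against 230 and 446 units in sensitive cells. Its log2 difference of -2.12 (SE 0.36, limma adjusted p = 0.00045) was called as deposited, and after scaling it was -1.75 with an adjusted p of 0.0524. Irgq, an IRG-related gene that lacks a working GTPase site, read 535 units in resistant cells, against 652 and 682 units in sensitive cells, and was not called on either scale. Gbp9, Gbp11, Gbp2b (formerly Gbp1) and Irgc1, chosen for mention after their values were seen, read 10.9 units or less in resistant cells and 9.23 to 60.9 units in sensitive cells, too dim for a firm statement. Gbp7, Gbp8, Gbp10, Tgtp2 and Gvin1 were not analysed here.

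The interferon gamma ligand and its binding receptor chain rose in resistant cells. Of 10 measured transcription factor genes of interferon signalling, type I as well as gamma, 4 fell, where 8.37% of all genes did. Ifngr1, the ligand-binding chain of the interferon gamma receptor, read 6568 units in resistant cells, against 1024 and 1415 units in sensitive cells. The log2 difference was 2.40 (SE 0.23, limma adjusted p = 6.64e-06) as deposited and 3.17 after scaling, and both sensitive arrays lay far below the resistant one. Ifng, which encodes interferon gamma itself, read 445 units in resistant cells, against 114 and 124 units in sensitive cells (1.55 as deposited, adjusted p = 0.000933, and 2.26 after scaling). Ifngr2, the signalling chain of the receptor, went the other way as deposited, with 737 units in resistant cells, against 1865 and 2579 units in sensitive cells (-1.51, and -0.78 without a call after scaling).

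Neither measured kinase of the interferon gamma receptor was called on both scales. Jak1 read 2593 units in resistant cells, against 6621 and 6239 units in sensitive cells, and was called lower on the deposited scale alone (-1.29, with -0.53 after scaling). Jak2 read 412 units in resistant cells, against 347 and 367 units in sensitive cells, and was not called (0.19 as deposited and 0.89 after scaling). Tyk2 was not analysed here.

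Of 10 measured transcription factor genes, 5 were called lower as deposited and 4 on both scales, with 0 called higher. Over all genes, 18.5% were called lower as deposited and 8.37% on both scales, and 5.23% and 5.21% higher. Irf8, which in macrophages acts with IRF1 on interferon gamma targets, read 29.6 units in resistant cells, against 3115 and 2302 units in sensitive cells (-5.10 as deposited and -4.76 after scaling). Nlrc5, the interferon-induced activator of MHC class I genes, read 96.4 units in resistant cells, against 3287 and 3551 units in sensitive cells (-4.57 and -4.01). Its dimmer probe read 24.9 units in resistant cells, against 46.0 and 93.7 units in sensitive cells, and with the mean of both probes the difference was -2.61. Irf7, the amplifier of type I interferon production, read 24.9 units in resistant cells, against 661 and 1560 units in sensitive cells (-3.84 and -3.53), and its call was lost after quantile normalization (-3.24, adjusted p = 0.0653). Irf1, which directly induces many GBP genes, read 768 units in resistant cells, against 1252 and 1315 units in sensitive cells. It was not called, with a log2 difference of -0.70 as deposited and 0.029 after scaling.

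Irf9 and Stat2, whose proteins take part in binding ISREs after type I interferon, were singled out after their values were seen. Irf9 read 143 units in resistant cells, against 639 and 1014 units in sensitive cells, and fell (-2.15 as deposited, limma adjusted p = 9.01e-05, and -1.54 after scaling), but its call was lost after quantile normalization. Stat2 read 233 units in resistant cells, against 709 and 1340 units in sensitive cells, and was called lower on the deposited scale alone (-1.86, with -1.20 after scaling).

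The inhibitors split. Cish, a cytokine-induced SOCS family member that acts mainly on STAT5 signalling, read 2332 units in resistant cells, against 147 and 219 units in sensitive cells, and rose by 3.37 on the log2 scale as deposited (SE 0.27, limma adjusted p = 1.53e-06) and 4.13 after scaling. Usp18, an interferon-induced brake on the type I receptor, read 4.67 units in resistant cells, against 564 and 1319 units in sensitive cells (-4.07 and -3.98). That resistant value is near 0, where a failed spot cannot be told apart from a low transcript, and the call was lost after quantile normalization (-3.81, adjusted p = 0.0522). Socs1, the main inhibitor of interferon gamma signalling, read 177 units in resistant cells, between the 134 and 260 units of the sensitive cells. Over all 25 measured signalling genes (27 were listed), 9 were called lower and 3 higher as deposited, and 5 lower and 3 higher on both scales. Over all genes the shares were 18.5% and 5.23% as deposited, and 8.37% and 5.21% on both scales. Their median log2 difference was -0.70 as deposited and -0.12 after scaling.

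**Figure D3:**
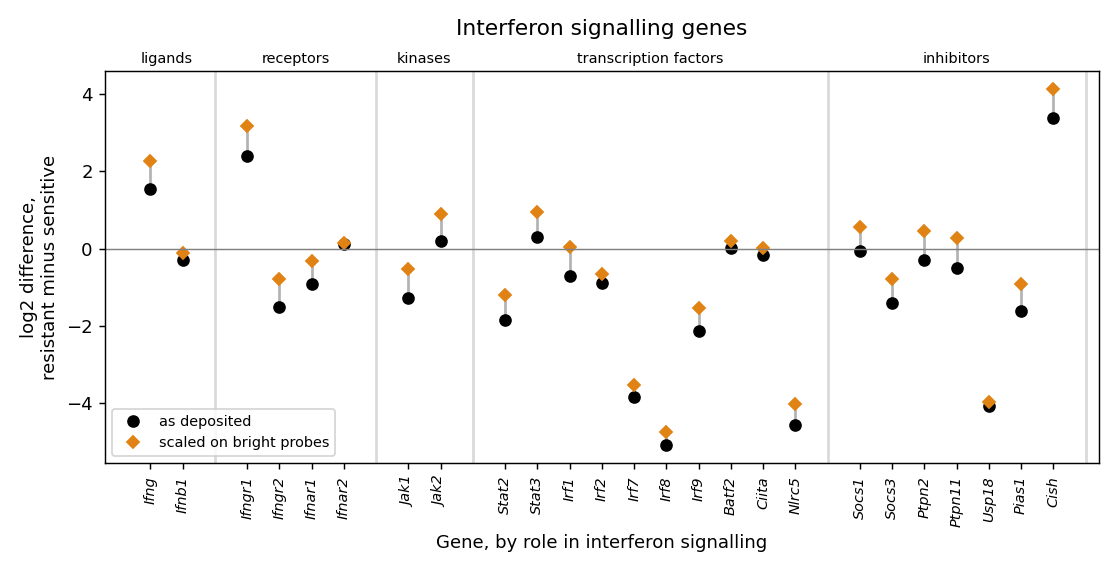
Log2 difference between resistant and sensitive cells for 25 interferon signalling genes ordered by role, as deposited (black circles) and after scaling on bright probes (orange diamonds). Ifng, Ifngr1 and Cish lie above 0 on both scales and were called, while Irf7, Irf8, Irf9, Nlrc5 and Usp18 lie well below 0.

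The autophagy-related conjugation system places GBPs and IRGs on pathogen vacuoles. A list of its genes, with further autophagy-related and ubiquitin genes, held several called lower as deposited and few called after scaling. Of 15 measured genes (16 were listed), 7 were called lower and 0 higher as deposited, with 0 at an unadjusted p under 0.05 in the higher direction, where 18.5% of all genes were called lower and 5.23% higher. On both scales 2 of the 15 were lower and 0 higher, against 8.37% and 5.21% of all genes, and the list median was -0.92 as deposited and -0.18 after scaling. Trim21, an interferon-induced ubiquitin ligase that binds antibodies in the cytosol, read 73.1 units in resistant cells, against 311 and 412 units in sensitive cells (-1.73 as deposited and -1.22 after scaling). Its other, dimmer probe read 0 units in resistant cells, against 224 and 226 units in sensitive cells. Map1lc3a, an LC3 gene, read 23.3 units in resistant cells, against 140 and 164 units in sensitive cells (-1.46 and -1.17). Both calls were lost after quantile normalization, with differences of -1.20 for Trim21 and -0.89 for Map1lc3a.

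The GTPase genes lie in clusters, so the measured genes next to each listed member were read as well. Of 35 distinct neighbours, 7 were called lower and 1 higher as deposited, and 3 lower and 1 higher on both scales. Over all genes the shares were 18.5% and 5.23% as deposited and 8.37% and 5.21% on both scales, so the neighbours' lower calls stood near the background. The one that rose was Gm4951, an IRG gene also named Ifgga2 in the annotation, which lies in the Iigp1 cluster on chromosome 18. It read 381 units in resistant cells, against 31.1 and 51.4 units in sensitive cells, which is 2.25 on the log2 scale (SE 0.30, limma adjusted p = 7.66e-05) as deposited and 2.95 after scaling. Iigp1 itself did not pass the test, and of the 3 measured neighbours on the other side, Smim3 (-2.32 as deposited and -1.67 after scaling) and the splicing factor gene Rbm22 (-1.49 and -1.18) fell. The Rbm22 call was lost after quantile normalization (-0.90, adjusted p = 0.0581), centring on array medians (-0.86) and a floor of 50 (-1.68, adjusted p = 0.0735). Dctn4, which lies between them, was not called (-0.77, and -0.023 after scaling). Olfr1396, an odorant receptor gene beside Ifi47, was called lower on a probe that read 0 units in resistant cells, against 53.4 and 83.1 units in sensitive cells. A failed spot cannot be told apart from a low transcript there, and the call was lost after quantile normalization (-0.96), centring on array medians (-0.61), with an offset of 100 (-0.75) and with a floor of 50 (-0.41).

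By the annotation's synonyms, a grouping made after the values were seen, 8 of the neighbours are IRG genes. Of these, 6 read at most 20 units on every array, and Gm4951 was the 1 that was called. The remaining gene, 9930111J21Rik1, read 65.3 units in resistant cells, against 157 and 265 units in sensitive cells, and was not called (-1.15, and -0.66 after scaling). Probe sequences were not used here, so whether a probe of one family member also reads a close relative was not tested.

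**Figure D4:**
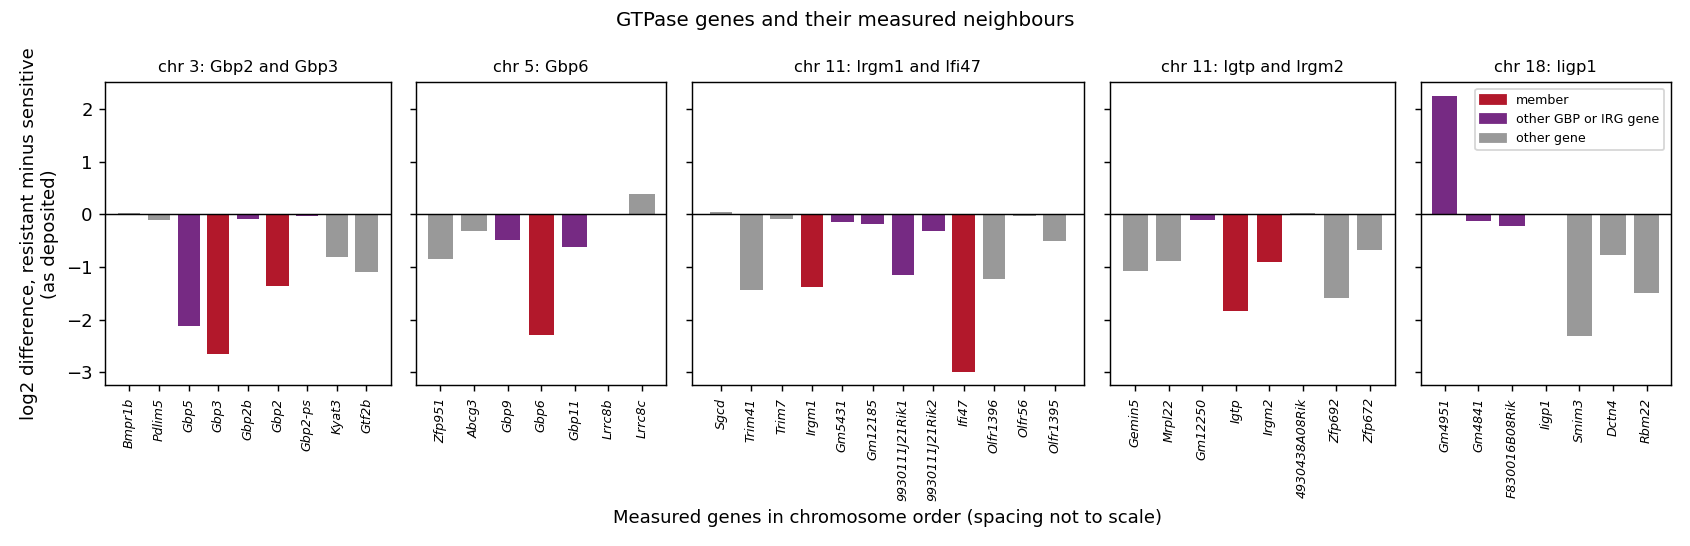
Log2 difference between resistant and sensitive cells, as deposited, for each measured GTPase gene (red), further GBP or IRG genes (purple) and other measured neighbours (grey), in chromosome order and not to scale. Gm4951, at 2.25, stands above 0 in the Iigp1 cluster, while Gbp5, Gbp3, Gbp6, Ifi47 and Igtp stand below -1.8. So does Smim3, a neighbour outside the GTPase families, at -2.32.

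Of the myeloid markers, the granule gene Mpo read 80905 units in resistant cells, against 76710 and 84138 units in sensitive cells, and Ptprc, Prtn3 and Kit also read above 2000 units on all 3 arrays. Cd33 was low throughout, with 17.1 units in resistant cells, against 17.4 and 73.9 units in sensitive cells, and the myeloid factor gene Spi1 fell (109 units in resistant cells, against 634 and 591 units in sensitive cells). The integrin gene Itgam was called lower as deposited only (443 units in resistant cells, against 1318 and 2389 units in sensitive cells). The granulocyte factor gene Cebpa read 961 units in resistant cells, against 368 and 582 units in sensitive cells, and was called higher after scaling only (1.72). Of the 8 measured myeloid markers, 2 were called lower as deposited and 1 on both scales, where 18.5% and 8.37% of all genes were. Of 17 measured markers of T, B, NK, erythroid, dendritic and fibroblast cells, 6 (Cd3d, Ms4a1, Ncr1, Clec9a, Xcr1 and Col1a2) read at most 10 units on every array. The brightest was the B cell gene Cd22, with 132 units in resistant cells, against 959 and 934 units in sensitive cells. Summed over the 17, the markers read 412 units in resistant cells, against 2224 and 1983 units in sensitive cells. Of the 17, 5 were called lower as deposited, 3 of them on both scales, and 0 higher. The shares over all genes were 18.5% and 8.37% lower, and 5.23% and 5.21% higher. For T and NK cells, the usual sources of interferon gamma, the sums were 107 and 26.4 units in resistant cells. In sensitive cells they were 308 and 274 units for T cells and 222 and 143 units for NK cells. The T cell sums came mainly from Cd3e (90.2 units in resistant cells, against 272 and 223 units in sensitive cells). Cd3g was dim (3.11 units, against 23.6 and 29.0 units), and Cd8a, at 17.1 units, lay between the sensitive arrays. The NK cell sums came almost wholly from Klrd1 (28.0 units, against 221 and 141 units). The part of these levels in the fall of the GTPases was not tested.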

How the data were processed

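The authors deposited 1 table of intensity values per probe and array. Per the labels' protocols, total RNA was amplified into antisense RNA carrying amino-allyl groups, to which the dye Cy5 was coupled, for 1-colour arrays. The values are linear and reach below 0, so a background had been subtracted. The scanner, software and scaling are not given in the labels or the table, and no background or saturation flags were used. The 3 arrays were grouped by title. Of 26423 probes, 18213 matched a current GRCm38.p6 symbol and 2126 an older one, while 38 had an ambiguous older name and 6046 none. The brightest probe by mean stood for each of 17742 genes.

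limma 3.58.1 in R 4.3.3 (lmFit, eBayes with a variance trend) was fitted to log2(intensity + 50), with 1 residual degree of freedom and a prior of 11.0. Members, gene lists and offset were chosen with earlier results of these data known. Named by rule were all members, Ifngr1, Ifngr2, Jak1, Jak2, Irf1, Socs1, Gbp5 and Mx1, and up to 4 genes per list and direction called on both scales. Up to 4 called neighbours, from the 3 measured genes on each side of a member, were named too. On simulated data (17742 genes), 99.8% of genes changed by 2 log2 units were recovered, and 95.8% of those changed by 1.5. All 3 simulated arrays had the fitted spread, and the resistant one was not dimmed. The recovery therefore cannot show whether the real resistant array varies like the sensitive pair, or how its dimness affects the calls. Python 3.11.15 with pandas 2.3.3 and matplotlib 3.10.9 made the summaries and figures. Alternatives were 3 other scalings, offsets of 16 and 100, a floor of 50, a filter on the dimmest 25% of genes, the mean of a gene's probes, other eBayes priors and leaving out each sensitive array.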

Additional observations from a re-analysis of the deposited data

How the results depend on the processing

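Most calls depended on the scaling. Members called lower, 6 as deposited, were 2 after quantile normalization, 3 after centring on array medians, 3 after scaling on bright probes and 0 when values under 50 were set to 50 with no offset (the floor below), where limma gave 4 of 8 members an unadjusted p under 0.05, all lower. The median log2 difference of the members stayed negative at -1.03, -0.99 and -1.15 under those 3 scalings, and was -2.00 with an offset of 16. Signalling genes called lower, 9 as deposited, were 2, 5, 5 and 1 in the same order, and those called higher, 3 as deposited, were 0 with the floor (3 at an unadjusted p under 0.05). Other GTPases called lower, 3 as deposited, were 1 after quantile normalization and 0 with the floor (1 at an unadjusted p under 0.05). Conjugation genes called lower, 7 as deposited, were 0, 1, 2 and 0 in the same order (6 after quantile normalization and 7 with the floor at an unadjusted p under 0.05), and 1, Map1lc3b, was called higher after scaling on bright probes. Over all genes, 3284 lower and 928 higher calls as deposited became 1201 lower after quantile normalization, 1273 lower and 1697 higher after centring, 1503 lower and 1749 higher after bright-probe scaling, and 26 lower and 133 higher with the floor. Quantile normalization gave 1334 higher.

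The sign changed for Irf1 after bright-probe scaling (0.029), for Iigp1 without a sensitive array (-0.087 to 0.11) and for Socs1 after quantile normalization (0.51), centring (0.55), bright-probe scaling (0.56) and without a sensitive array (-0.45 to 0.30); none of them was called. Over the 8 members and 12 alternatives, 77 results kept their call or lack of one, 17 lost it, 1 gained it (Irgm2 without sensitive replicate 1, -1.24) and 1 changed sign. Gbp3 and Ifi47 lost their call with the floor only (-2.72, adjusted p = 0.0885, and -3.53, adjusted p = 0.0627), and their log2 differences ranged from -2.85 to -1.91 and from -3.53 to -2.37 over 12 alternatives. Without 1 sensitive array, 1 array stands against 1, which gives values but no test: 6 to 7 members then differed by at least 1, and the causes of the changes above were not tested. No paired analysis was possible because the resistant array carries no replicate number. Probes near the array medians, such as those of Gbp2, Gbp6 and Irgm2 in resistant cells, limit what can be said of their size.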
